A study of Mus musculus with 281 samples.

Results

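The mRNAs of 7 receptors that guide leukocytes along chemical gradients, Cxcr4, Ccr2, Cx3cr1, Ccr1, Fpr1, Fpr2 and C5ar1, were followed through 281 single bone marrow cells of C57BL/6 mice, an inbred strain. They are 7 of the 43280 gene symbols of the deposited expression table and form a functional group. The group was chosen by name, with earlier results of these data known. Values are in TPM, which expresses each transcript as a length-corrected share of a cell's mRNA. They come from SMART-seq2, a method that reads whole transcripts of individually sorted cells. The design states an interest in the variety of transcriptomes among granulocyte-monocyte progenitors (GMPs).

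Every cell carried 1 of 6 labels. The 47 CMP cells, the 45 Ly6C-GMP cells and the Ly6C+GMP cells (95 of title run A and 10 of run C, explained below) were sorted as lineage-negative, c-Kit+, Sca-1-, CD34+ progenitors, with low CD16/32 for CMP, high CD16/32 for both GMP labels, and Ly6C absent or present as the GMP names say. Of the 22 proneu cells, 21 had the same surface gate as Ly6C+GMP and 1 had no gate label, so what set proneu apart is not stated in the labels. The 31 preNeu cells were sorted as Lin-, Gr1+, CD11b+, CD115-, SiglecF-, c-Kit+ and CXCR4+, and the 31 tpMo cells as Lin-, CD115+, c-Kit-, CXCR4+ and Ly6C+. CXCR4 protein was therefore part of the preNeu and tpMo gates and of no other, and a difference in Cxcr4, Kit or Csf1r (the CD115 gene) can be set in part by the sort. No animal, culture or treatment is named, so each label counts as 1 sample, no test was made from its cells, and SDs and intervals describe cells only.

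Chemoattractant receptors cross the membrane 7 times and signal through Gi proteins to the cytoskeleton and integrins. CXCR4 binds CXCL12 of bone marrow stroma and holds progenitors in the marrow, whereas CCR2 binds CCL2 and CCL7 and drives the exit of Ly6C-high monocytes into blood. CX3CR1 binds CX3CL1 (fractalkine), CCR1 binds several CC chemokines, the formyl peptide receptors FPR1 and FPR2 sense bacterial and mitochondrial peptides, and C5AR1 binds the complement fragment C5a.

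The gene positions, in GRCm38 and GENCODE M21, were chr1:128588199-128592293 for Cxcr4 (minus strand), chr9:124101950-124113557 for Ccr2 (plus), chr9:119901616-120069879 for Cx3cr1 (minus), chr9:123962124-123968692 for Ccr1 (minus), chr17:17876471-17883940 for Fpr1 (minus), chr17:17887824-17893952 for Fpr2 (plus) and chr7:16246743-16259540 for C5ar1 (minus). Fpr1 and Fpr2 lie 3883 bases apart, and Ccr1 and Ccr2 lie 133257 bases apart. Sequence shared with other genes bears on what the values of Fpr2 mean, because reads from a shared stretch are divided between genes by estimate. The longest stretch that the coding sequence of Fpr2 shares base for base with that of Fpr3 is 94 of 1053 bases long (coding bases 217 to 310, chr17:17892960-17893053, plus strand). It is printed in full, as GENCODE M21 gives it, since no part of it tells the genes apart:
Fpr2 and Fpr3: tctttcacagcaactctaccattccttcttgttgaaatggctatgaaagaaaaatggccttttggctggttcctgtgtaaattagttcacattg
Over the whole transcripts, 31.5% of the 50-base windows of Fpr2 also occurred in another gene. Of the 408 shared Fpr2 windows, 368 occur in the pseudogene Gm5966 and 82 in Fpr3. The table has no symbol Gm5966. Fpr3 had a mean of at most 2.46 TPM in any label. No such window of Cxcr4, Ccr1 or C5ar1 was shared. Cx3cr1 spans other genes on both strands, and the kit does not mark strand, so reads from overlapping exons cannot be assigned by strand. Of its own transcript windows, 1.06% occurred in another gene.

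The 250 bases before each RefSeq gene start (GRCm38.p6) were searched on both strands for GAGGAA, a core of the sites of PU.1, a transcription factor of myeloid cells, and for TTGCNNAA, a core of C/EBP sites. GAGGAA was found in 2 of the 7 windows, those of Ccr1 and Fpr2, and in 23.3% of 32851 promoters. TTGCNNAA was in none of the 7 and in 9.56% of promoters. The 2 windows that hold a match are shown with it in capitals, Ccr1 at chr9:123968693-123968942 (minus strand) and Fpr2 at chr17:17887574-17887823 (plus strand, where the match reads as its reverse complement):
Ccr1: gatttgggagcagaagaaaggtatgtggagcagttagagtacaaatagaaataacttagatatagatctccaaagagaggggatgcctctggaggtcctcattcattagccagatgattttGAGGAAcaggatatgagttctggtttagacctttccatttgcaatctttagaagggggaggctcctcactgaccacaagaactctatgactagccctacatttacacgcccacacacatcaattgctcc
Fpr2: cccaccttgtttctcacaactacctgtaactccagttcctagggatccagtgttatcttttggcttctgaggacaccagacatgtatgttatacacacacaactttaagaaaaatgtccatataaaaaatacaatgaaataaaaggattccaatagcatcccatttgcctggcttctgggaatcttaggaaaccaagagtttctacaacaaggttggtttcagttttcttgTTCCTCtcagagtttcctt
The matches begin 129 bases and 19 bases before the start. Ccr1 was most abundant in tpMo cells and Fpr2 in preNeu cells, as given below, so the windows that share these letters belong to receptors of different labels.

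Depth and identity varied among the labels in ways that touch every value. The median number of genes at 1 TPM or more was lowest in preNeu (2373) and tpMo cells (3082), and 3489 in CMP, 4204 in proneu, 4514 in Ly6C-GMP and 4829 in Ly6C+GMP cells. Sort genes followed the gates to different extents. Csf1r averaged 170 TPM in tpMo cells, whose gate asks for CD115, but only 22 of 31 (71%) reached 1 TPM. It reached 1 TPM in 0 of 31 preNeu cells, which were sorted as CD115-. Kit did so in 0 of 31 tpMo cells, but in only 6 of 31 preNeu cells (19.4%), whose gate asks for c-Kit, and Cxcr4 is described below. The 12 neutrophil progenitor markers summed to 152024 to 291838 TPM in preNeu cells and 147 to 65208 TPM in tpMo cells. Erythroid markers averaged a summed 682 TPM in CMP cells, and basophil and mast cell markers 473 TPM there and 933 TPM in Ly6C-GMP cells, against at most 100.9 TPM (proneu) for the second list in the other labels; their part in the receptor values was not tested. All 8 T and NK cell markers were at 0 in Ly6C+GMP, proneu, preNeu and tpMo cells. Sample titles fall into stretches, called title runs here, whose meaning the labels do not give: run A holds 95 Ly6C+GMP cells, run B 31 CMP, 30 Ly6C-GMP and 1 proneu, run C 10 Ly6C+GMP, 21 proneu, 31 preNeu and 31 tpMo, and run H 16 CMP and 15 Ly6C-GMP. Because no run holds both GMP labels, a difference between runs and one between these labels cannot be told apart.

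Cxcr4 was the most widely detected of the receptors, and its level differed little between labels. It reached 1 TPM in 182 of the 281 cells, but in 108 of these the value was under 10 TPM. CMP cells had a lowest, median and highest value of 0, 1.44 and 163 TPM, and Ly6C-GMP cells 0, 2.74 and 277 TPM. Ly6C+GMP cells had 0, 4.2 and 149.7 TPM, and proneu cells 0, 3.08 and 265 TPM. In all 4 labels most cells lay low with a few far above. The cells gated on CXCR4 covered a like range: preNeu had 0, 0 and 280.0 TPM and tpMo 0, 4.48 and 138 TPM. Mean levels were, from the highest, 22.6 ± 67.3 TPM (SD over cells) in preNeu, 16.5 ± 55.8 in proneu, 14.5 ± 28.8 in tpMo, 13.7 ± 43.7 in Ly6C-GMP, 13.4 ± 27.8 in Ly6C+GMP and 7.28 ± 24 in CMP cells.

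None of the 5 steps in that order was larger than 1 SD, and the exact Clopper-Pearson 95% intervals of the shares of cells overlapped at each step. Single cells carried much of the preNeu and proneu means, which were 14.1 and 4.66 TPM without the highest cell of each. Pooled by gate, 40 of the 62 cells gated on CXCR4 protein had Cxcr4 at 1 TPM or more (64.5%, interval 51.3 to 76.3%), beside 142 of the 219 other cells (64.8%, 58.1 to 71.2%). At 10 TPM the shares were 27.4% (16.9 to 40.2%) and 26% (20.3 to 32.4%). The shares of cells with the mRNA thus lay within each other's intervals with and without the protein gate. The gated labels themselves differed at 1 TPM, with Cxcr4 in 26 of 31 tpMo cells (83.9%, 66.3 to 94.5%) and 14 of 31 preNeu cells (45.2%, 27.3 to 64%), and preNeu cells had fewer detected genes. At 10 TPM the counts were 8 and 9. The genes closest to Cxcr4 over all 281 cells were F13a1 (r 0.25), Sarnp (0.22), Atp5c1 (0.21), Ms4a6c (0.21) and Irf8 (0.20), which are weak values.

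**Figure D1:**
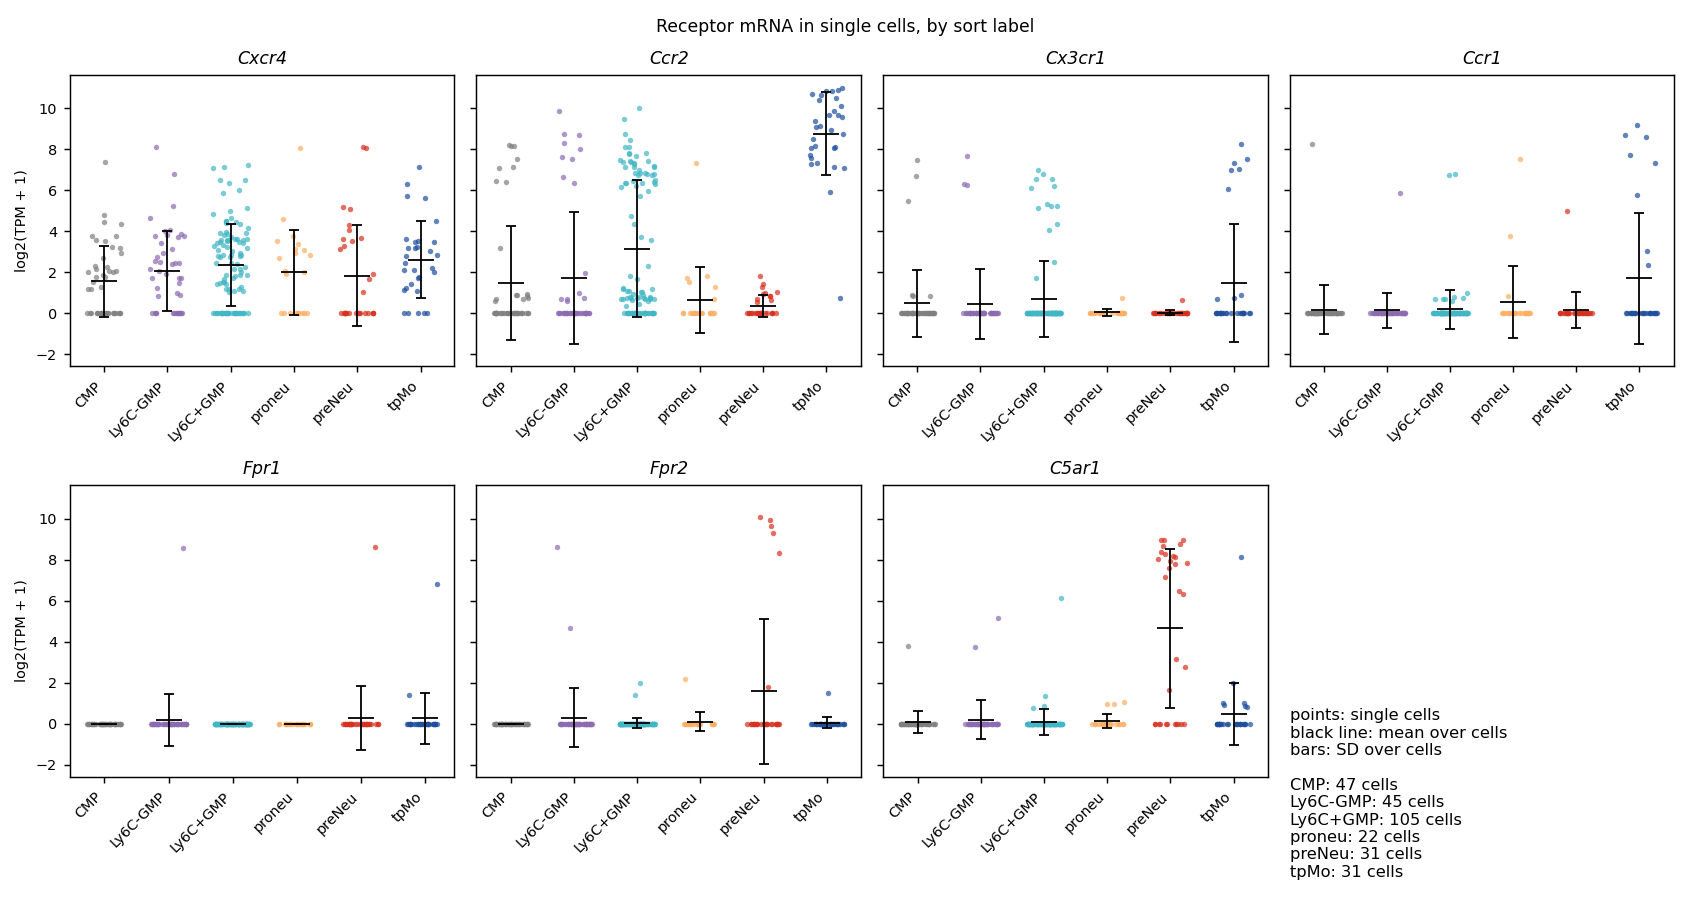
Single-cell levels of the 7 receptors as log2(TPM + 1), by sort label; points are cells, black lines are means and bars are SDs over cells. Ccr2 stands at a mean of 752 TPM in tpMo cells and C5ar1 at 162 TPM in preNeu cells, whereas Cxcr4 spreads over a similar low range in all 6 labels.

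Ccr2, the receptor of monocyte exit from marrow, was the most abundant of the 7 and marked the tpMo cells. Among the 31 tpMo cells the lowest, median and highest values were 0.67, 544 and 2049 TPM, and 30 cells lay at 10 TPM or more (96.8%, 83.3 to 99.9%). Ly6C+GMP cells had 0, 1.07 and 1043 TPM, and they split in a low and a high set: 51 cells were under 1 TPM, 10 lay between 1 and 10 TPM and 44 at 10 TPM or more. Fewer Ly6C-GMP cells (9 of 45) and CMP cells (8 of 47) reached 10 TPM, with highest values of 923 and 294 TPM and medians of 0. Cells on the neutrophil side were nearly devoid of it. The highest preNeu cell had 2.48 TPM, and 0 of 31 reached 10 TPM, which allows a share of up to 9.68%. For a count of 0 the limit is given as 3 cells of the label's number, here 3 of 31, and not as the bound of the exact interval, which is 11.2%.

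The mean of Ccr2 was 752 ± 642 TPM in tpMo, 71.6 ± 144 in Ly6C+GMP, 64.8 ± 170.5 in Ly6C-GMP, 32 ± 79 in CMP, 7.78 ± 34.6 in proneu and 0.382 ± 0.627 in preNeu cells. The proneu mean rests on 1 cell at 163 TPM, the cell of run B without a gate label. That cell also had Elane, a neutrophil granule protease, at 35896 TPM and F13a1, a monocyte marker, at 381 TPM. Without it the mean was 0.412 TPM, close to that of preNeu cells. Of the 5 steps in this order only that from tpMo to Ly6C+GMP exceeded 1 SD. The shares of cells at 1 TPM were apart at that step and at the next, Ly6C+GMP (54 cells, 51.4%) against Ly6C-GMP (10 cells, 22.2%).

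Among Ly6C+GMP cells, Ccr2 was found with some monocyte-lineage transcripts, whereas Ly6c2 and Ngp gave no separation and Cebpe went the other way. Of the 44 Ly6C+GMP cells with Ccr2 at 10 TPM or more, 42 also had Irf8, a transcription factor of the monocyte lineage, at that level, which 73 cells of the whole label had. F13a1, the coagulation factor XIII A chain, was at 10 TPM or more in 42 of the 44 and in 83 of the label. Csf1r, the M-CSF receptor, was so in 30 of the 44 and in 51 of the label. Ly6c2, a Ly6C gene, gave no separation, at 10 TPM or more in every Ly6C+GMP cell, and Ly6C was part of the gate. Ngp, a neutrophil granule protein, gave none either, at 1 TPM or more in every Ly6C+GMP cell and at 10 TPM or more in 44 of the 44. Cebpe was at 10 TPM or more in fewer of the Ccr2 cells, in 12 of the 44 and in 54 of the label. It reached that level in 24 preNeu and 4 tpMo cells. In CMP cells detection went with depth. Ccr2 reached 1 TPM in 9 of the 24 CMP cells with the most detected genes and in 0 of the 23 with the fewest, and the part of depth in the CMP value was not tested. In tpMo cells the counts were 15 of 16 and 15 of 15.

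The genes whose levels ran most closely with Ccr2 over all 281 cells, among 4261 genes ranked, were F13a1 (Pearson r 0.70), Pld4 (0.67), Ms4a6c (0.67), Ctss (0.67) and Tpm4 (0.66). Within the 31 tpMo cells the values were 0.54, 0.36, 0.58, 0.74 and 0.29, in the same order. Ctss encodes the lysosomal protease cathepsin S, and Ms4a6c a membrane protein of monocytes. These correlations are descriptions over cells that share label, title run and depth. By Spearman's rank correlation, 4 of the 5 were again among the leading 5.

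**Figure D2:**
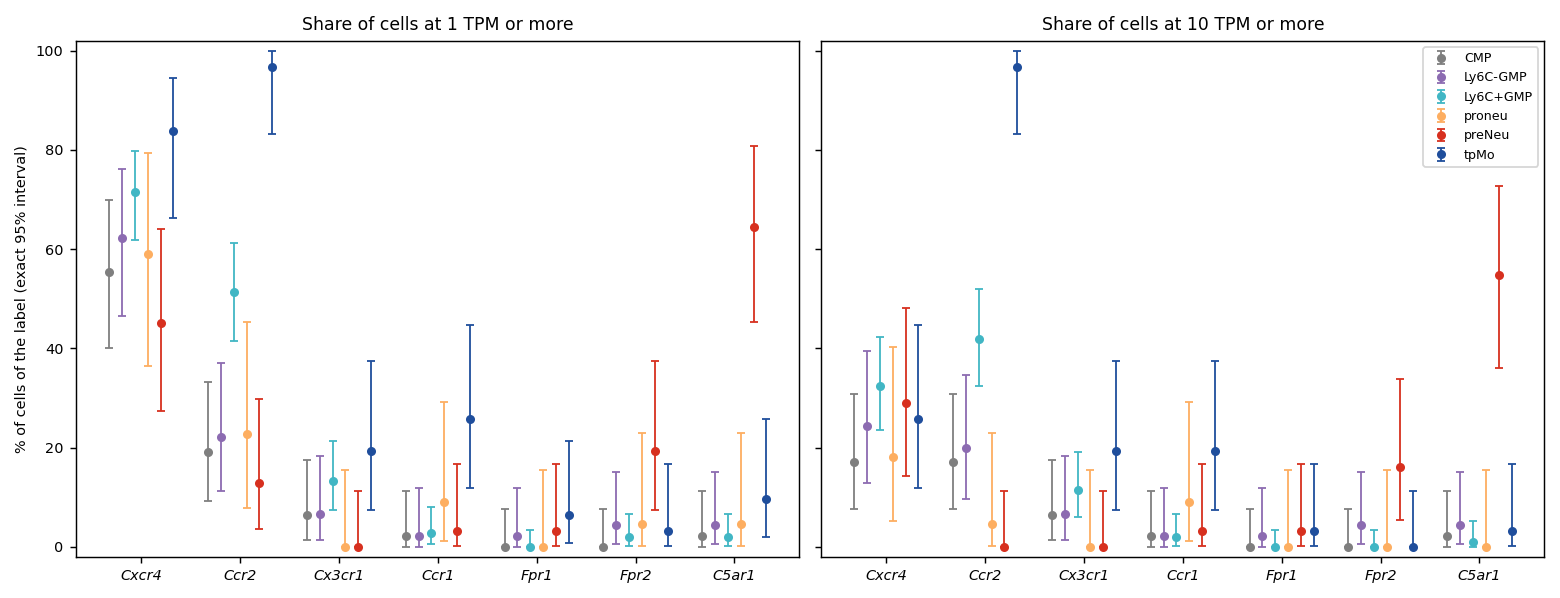
Share of cells of each label at 1 TPM or more (left) and at 10 TPM or more (right) for each receptor, with exact Clopper-Pearson 95% intervals that cover counting error only. Ccr2 stands at 96.8% of tpMo cells in both panels, whereas Cxcr4 falls from 83.9% to 25.8% there.

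Cx3cr1, which marks monocytes and their progenitors, was detected at 1 TPM in 26 cells, none of them proneu or preNeu. The highest tpMo cell had 302 TPM, the median was 0 and 6 of 31 cells reached 10 TPM (19.4%, 7.45 to 37.5%). In Ly6C+GMP cells 12 cells (11.4%) did so, up to 126 TPM, beside 3 of 45 Ly6C-GMP cells (up to 206 TPM) and 3 of 47 CMP cells (up to 177 TPM). Mean levels were 31.3 ± 72.5 TPM in tpMo, 8.02 ± 34.2 in Ly6C-GMP, 7.15 ± 23.2 in Ly6C+GMP and 6.96 ± 30.1 in CMP cells, and at most 0.0305 TPM in proneu and preNeu cells. No step of this order was larger than 1 SD. At 0 cells above 1 TPM, the same limit of 3 cells is 9.68% for preNeu and 13.6% for proneu.

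Cells with Cx3cr1 were largely cells with Ccr2. Of the 24 cells with Cx3cr1 at 10 TPM or more, 19 had Ccr2 at that level, and in tpMo cells it was 6 of 6. Irf8 was at 10 TPM or more in 12 of the 12 such Ly6C+GMP cells, beside 73 cells of that label, in 3 of the 3 such CMP cells, beside 17 of 47, and in 5 of the 6 such tpMo cells, beside 24 of 31. In Ly6C-GMP cells it was 3 of 3, beside 18 of 45. Over all cells the closest genes were Pyhin1 (r 0.35), Prdx4 (0.33), Irf8 (0.33), Ly86 (0.31) and F13a1 (0.30). All 5 values are weak and the counts are sparse. Run A held all of the Ly6C+GMP cells with Cx3cr1 above 0, as the 10 cells of run C were at 0.

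Ccr1, a receptor of inflammatory CC chemokines on monocytes and neutrophils, was present in few cells. In tpMo cells it reached 10 TPM in 6 of 31 (19.4%, 7.45 to 37.5%), at 54.4, 159, 208, 388, 416 and 585 TPM, and the other cells lay under 10 TPM. All 6 had Ccr2 at 10 TPM or more, as did 30 of the 31 tpMo cells, and 1 of them had Cx3cr1. Elsewhere it reached 10 TPM in 1 CMP cell (305 TPM), 1 Ly6C-GMP cell (56.4 TPM), 2 Ly6C+GMP cells (108 and 108 TPM), 2 proneu cells (183 and 12.4 TPM) and 1 preNeu cell (30.7 TPM). Means were 58.8 ± 145 TPM in tpMo and 8.92 ± 39 TPM or less in each other label, where 1 or 2 cells carried the mean. The step from tpMo to the next label did not exceed 1 SD. Its closest genes over cells were S100a6 (r 0.33), S100a4 (0.32), Rnd3 (0.32), Pira2 (0.29) and Fn1 (0.29), which are weak values.

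Fpr1, the formyl peptide receptor of mature neutrophils and monocytes, was close to undetected. It was above 0 in 4 of the 281 cells: 1 Ly6C-GMP cell at 380 TPM, 1 preNeu cell at 392 TPM and 2 tpMo cells at 111 and 1.62 TPM. It was listed at 0 in all CMP, Ly6C+GMP and proneu cells, for which the limit of 3 cells is 6.38%, 2.86% and 13.6%. No order of labels can be read from so few cells. The tpMo cell at 111 TPM also had Ccr2 at 428 TPM.

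Fpr2, its neighbour on chromosome 17, was found chiefly in preNeu cells, where it was at 10 TPM or more in 5 of 31 cells (16.1%, 5.45 to 33.7%). These 5 had 319, 634, 806, 974 and 1070 TPM, while 25 cells were at 0, so the preNeu mean was 123 ± 304 TPM with a median of 0. All 6 preNeu cells with Fpr2 at 1 TPM belonged to the 15 with the fewest detected genes, and 0 of the other 16 had it; the part of depth in this was not tested. Outside preNeu it reached 10 TPM in 2 Ly6C-GMP cells, at 391 and 24.8 TPM. Both also had C5ar1 (35.2 and 12.5 TPM) and Ngp (5582 and 40544 TPM), the granule gene that averaged 141178 TPM in preNeu cells and was at a median of 0 in Ly6C-GMP cells. The cell at 391 TPM was also the Ly6C-GMP cell with Fpr1. The closest genes over all cells were Ltf (r 0.37), Padi4 (0.37), Camp (0.36), Lrg1 (0.36) and Ngp (0.36). Within preNeu cells the values were -0.12, 0.28, 0.11, 0.09 and 0.07, in the same order.

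C5ar1, the C5a receptor of neutrophils and macrophages, was highest in preNeu cells. Their lowest, median and highest values were 0, 86.6 and 505 TPM, and 17 of 31 cells reached 10 TPM (54.8%, 36 to 72.7%), while 11 were at 0. Every other label had a median of 0. Single cells stood out, at 277 TPM in tpMo, 69.1 TPM in Ly6C+GMP and, lowest of the 3, 13 TPM in CMP, and no proneu cell exceeded 1.06 TPM. The tpMo cell at 277 TPM had monocyte transcripts (Ccr2 at 58.4 TPM, F13a1 at 632 TPM and Csf1r at 84.2 TPM) and Ngp at 111 TPM, near the tpMo median of 89.6 TPM.

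The mean of C5ar1 was 162 ± 179 TPM in preNeu and 9.16 ± 49.7 in tpMo cells (0.247 without the highest), and at most 1.06 TPM in the other 4 labels. The first step of the order was under 1 SD, but its shares at 1 TPM were apart, 20 of 31 (64.5%, 45.4 to 80.8%) against 3 of 31 (9.68%, 2.04 to 25.8%). C5ar1 was found in 13 of the 16 preNeu cells with the most detected genes and in 7 of the 15 with the fewest. Its closest genes over all cells were Chil1 (r 0.69), Ltf (0.69), Itgb2l (0.69), Cd177 (0.67) and Lcn2 (0.64), and within preNeu cells 0.35, 0.35, 0.47, 0.24 and 0.35. Ltf and Lcn2 encode the secondary granule proteins lactoferrin and lipocalin 2, and Cd177 a surface protein of neutrophils. By rank correlation 2 of the 5 were among the leading 5.

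Low values of abundant transcripts were widespread. Ngp was at 1 TPM or more in all 31 tpMo cells (mean 91.4 TPM) beside 141178 TPM in preNeu cells of the same title run, and also in every Ly6C+GMP cell, most of them from run A, which holds no preNeu cell. In run C, Ccr2 between 1 and 10 TPM occurred in 4 preNeu and 4 proneu cells beside 752 TPM in tpMo cells. Whether transfer of reads between libraries plays a part in such values was not tested. Counts at 10 TPM leave these Ccr2 cells out, but not the Ngp values, as 31 of 31 tpMo cells had Ngp at 10 TPM or more.

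Between adjacent labels, a gene was called higher or lower from a difference of 1 in the mean over cells of log2(TPM + 1), where 1 of the labels had a mean of 1 TPM or more. From CMP to Ly6C-GMP all 7 receptors passed the filter and 0 were called, whereas 15.6% of all genes were higher and 1.29% lower. Their differences ran from -0.05 (Ccr1) to 0.51 (Cxcr4). Within title run H, Ccr2 differed by 1.40, and within run B by -0.30. From Ly6C-GMP to Ly6C+GMP 1 of the 7 was higher, Ccr2 by 1.43, and 0 were lower, beside 9.87% and 1.35% of all genes. That call did not hold for the 10 Ly6C+GMP cells of run C, at 0.32, or with 10 TPM added before the logarithm, at 0.64. On the TPM scale, mean Ccr2 was 76.6 TPM in run A and 24.6 TPM in run C of the Ly6C+GMP cells, and 125 TPM in run H and 34.4 TPM in run B of the Ly6C-GMP cells, so on this scale the runs of 1 label differed by more than the labels, whose means differed by 6.85 TPM.

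From Ly6C+GMP to proneu, 4 of the 7 passed the filter, 1 was lower (Ccr2 at -2.50) and 0 were higher, beside 15.9% and 2.2% of all genes. Within run C the Ccr2 difference was -1.71. Both labels have 1 gate, and how proneu cells were told from the others is not stated in the labels, so a part of this difference that comes from the assignment cannot be told apart. From proneu to preNeu, 6 passed the filter and 2 were higher, C5ar1 by 4.51 and Fpr2 by 1.48, with 0 lower, beside 3.58% and 39.8% of all genes. The median difference was -0.01 for the 7 receptors and -0.68 for all 10991 genes tested. The 4.51 for C5ar1 stands beside a mean of 0.132 TPM in proneu cells. With 10 TPM added before the logarithm, Fpr2 differed by 0.98 and was no longer called.

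From Ly6C+GMP to tpMo, 6 passed the filter and 2 were higher, Ccr2 by 5.61 and Ccr1 by 1.52, with 0 lower, beside 3.19% and 32.9% of all genes. The median was 0.39 for the 7 receptors and -0.50 for all 12057 genes. Within run C the differences were 6.72 for Ccr2, 0.92 for Ccr1 and 1.47 for Cx3cr1, so that Ccr1 was no longer called and Cx3cr1 was, which over all cells differed by 0.77. The comparison of tpMo with preNeu, both from run C, set the receptors furthest apart. Higher in tpMo were Ccr2 by 8.41, Ccr1 by 1.54 and Cx3cr1 by 1.45, and lower were C5ar1 at -4.17 and Fpr2 at -1.53, which is 3 and 2 of the 7 beside 26.3% and 4.53% of all genes. Cxcr4, at 0.78, and Fpr1, at -0.01, were within the threshold. With 10 TPM added, Ccr1 (0.87 in both tpMo comparisons), Cx3cr1 (0.78) and Fpr2 (-0.995) were no longer called. The comparisons share label groups and are not independent of each other.

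**Figure D3:**
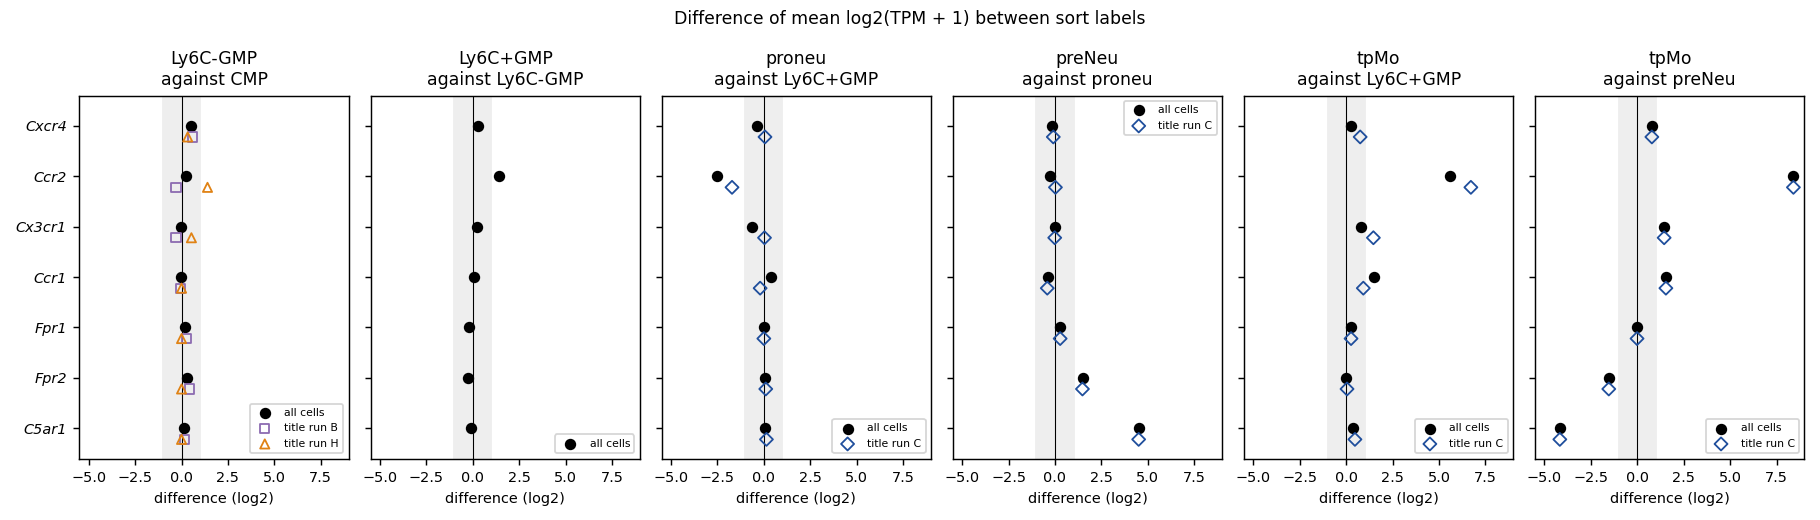
Difference of the mean of log2(TPM + 1) for each receptor in the 6 comparisons; black points are all cells, open symbols single title runs that hold both labels, and the grey band marks differences within 1. Ccr2 reaches 8.41 and C5ar1 -4.17 between tpMo and preNeu cells, and Cxcr4 stays within the band in all 6 comparisons.

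Counted per cell, receptors were most often found together in tpMo cells. They had 2.45 ± 0.810 of the 7 at 1 TPM or more, and 0 of 31 cells had none. Much of this was 1 pair, as Cxcr4 and Ccr2 were both at 1 TPM or more in 25 of the 31 tpMo cells. Both were at 10 TPM or more in 8. Ccr2 was at 1 TPM or more in 30 of the 31, and CXCR4 protein was part of the tpMo gate. PreNeu cells had 1.48 ± 0.926 and 4 of 31 had none, and Ly6C+GMP cells had 1.43 ± 0.864 and 15.2% had none. Ly6C-GMP cells had 1.04 ± 0.878, proneu cells 1.00 ± 0.816 and CMP cells 0.851 ± 0.807. At 10 TPM the means were 1.68 in tpMo, 1.06 in preNeu, 0.886 in Ly6C+GMP, 0.644 in Ly6C-GMP, 0.447 in CMP and 0.318 in proneu cells. The number of detected genes was lowest in preNeu and tpMo cells. Among the other 4 labels the order at 1 TPM was that of their detected genes, and the part of depth in it was not tested.

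**Figure D4:**
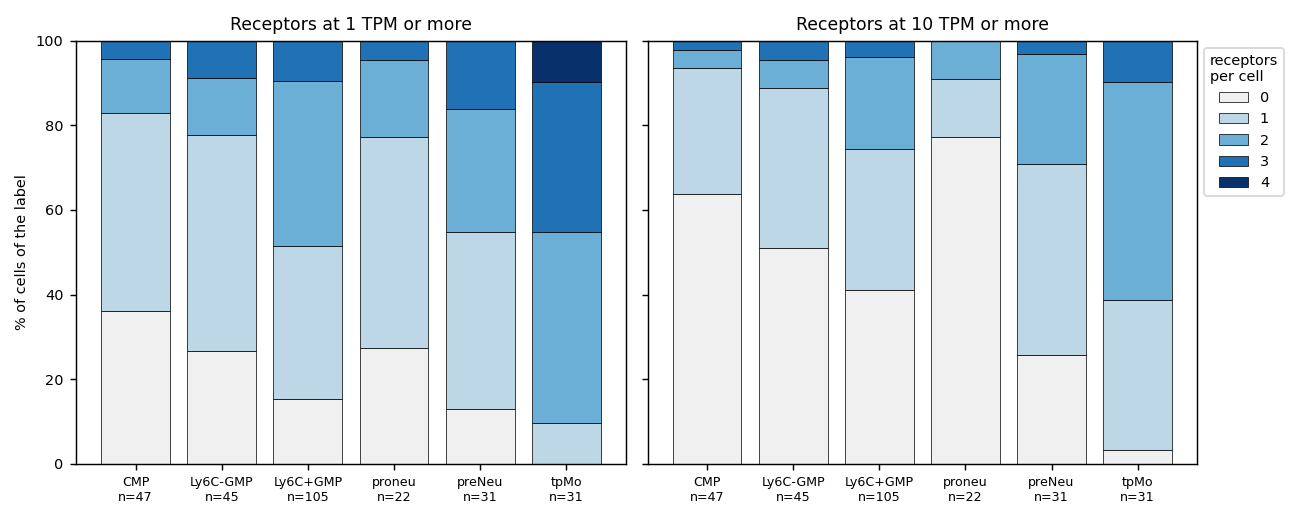
Share of cells of each label with 0 to 4 of the 7 receptors at 1 TPM or more (left) and at 10 TPM or more (right). At 1 TPM, 28 of the 31 tpMo cells hold 2 or more receptors, beside 8 of the 47 CMP cells.

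Pairs of receptors followed the labels. Ccr2 and C5ar1 were both at 10 TPM or more in 1 cell of the 281, out of 92 with Ccr2 and 22 with C5ar1, and Ccr2 and Fpr2 in 0 cells. Fpr2 and C5ar1 were together in 4 cells, out of 7 and 22. In preNeu cells, 2 of the 5 with Fpr2 had C5ar1, which 17 of 31 had, so Fpr2 was not confined to the C5ar1 cells. The single preNeu cell with Fpr1 was the one with the most C5ar1, 505 TPM. Cxcr4 and Ccr2 were together at 10 TPM in 31 cells, out of 74 and 92. Over all cells Cxcr4 had r = 0.22 with Ccr2, and within tpMo cells 0.03.

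The genes around the receptors were taken from lists of other chemokine receptors (20 genes), other chemoattractant receptors (20), ligands (25) and signalling genes (32). Of the other chemokine receptors, 11 were at 0 in every cell, among them Ccr3 and Cxcr1, which is a share near that of all symbols (25450 of 43280). In each comparison 2 to 4 passed the filter, with 0 called higher or lower, beside the shares of all genes given above. Cxcr2, the receptor that draws mature neutrophils out of marrow, averaged 48.2 ± 162 TPM in preNeu cells (5 of 31 cells at 1 TPM or more) and 19.4 ± 99.1 or less in the other labels. It was at 1 TPM in 0 of 31 tpMo cells, and its difference there against preNeu was -0.999, just inside the threshold.

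Of the receptors for lipids and other attractants, 8 or 9 passed the filter in each comparison, and their calls are given beside the shares of all genes. From Ly6C-GMP to Ly6C+GMP 0 of 8 were higher and 0 lower, beside 9.87% and 1.35% of all genes. Ltb4r1, the leukotriene B4 receptor, averaged 649.9 ± 581 TPM in preNeu, 314 ± 235 in proneu, 313 ± 337 in tpMo, 163 ± 232 in Ly6C+GMP, 118 ± 139 in Ly6C-GMP and 17.6 ± 99 in CMP cells, above C5ar1 in each label. It was the 1 of 9 measured genes of its list called from CMP to Ly6C-GMP (higher by 3.90), beside 15.6% of all genes higher and 1.29% lower. It was also the 1 of 8 called from Ly6C+GMP to proneu (higher by 2.29), beside 2.2% higher and 15.9% lower. Within run C the second difference was -0.19. From Ly6C+GMP to tpMo it differed by 0.60 over all cells and by -1.87 within run C. From proneu to preNeu 3 of 9 were higher and 0 lower, beside 3.58% and 39.8% of all genes. The 3 were Ptafr, the receptor of platelet-activating factor, by 3.47, S1pr4 by 1.32 and C5ar2, the second C5a receptor, by 1.08. C5ar2 reached 1 TPM in 12 of 31 preNeu cells. From Ly6C+GMP to tpMo, Ptafr (2.37) and Gpr183 (1.25), an oxysterol receptor, were higher and S1pr3 was lower (-1.42, and -0.99 within run C). That is 2 and 1 of 8 measured, beside 3.19% and 32.9% of all genes. Between preNeu and tpMo, Ltb4r1 (-2.66), C5ar2 (-1.38) and S1pr4 were lower in tpMo and Gpr183 (1.49) and S1pr2 higher. That is 3 lower and 2 higher of 8, beside 4.53% and 26.3% of all genes. Ptafr, at 104.1 TPM in preNeu and 51.5 TPM in tpMo cells, differed by -0.34.

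Of the 25 ligand genes, 13 were at 0 in every cell, as were 25450 of all 43280 symbols. Among the 13 were Cxcl12, Ccl2, Ccl7, Cx3cl1 and Hc, the gene of complement C5. In tpMo cells Ccl6, a CC chemokine that binds CCR1, averaged 548 ± 674 TPM (22 of 31 cells), beside 13.5 ± 48.7 in Ly6C+GMP cells (difference 5.32, and 5.18 within run C), and was listed at 0 in preNeu cells. Ccl9, another CCR1 ligand, averaged 188 to 313 TPM in every label but preNeu, where it was 0.742 ± 3.18 TPM (difference from proneu -5.02). Mif, a cytokine that can bind CXCR4, fell from 353 ± 247 TPM in proneu to 1.58 ± 7.52 in preNeu cells, a difference of -7.53. Anxa1, whose product annexin A1 acts on FPR2, was at 8169 ± 3930 TPM in preNeu and 1236 ± 931 TPM in proneu cells (3.16). Of the measured ligand genes, 2 of 7, 2 of 7, 1 of 6, 2 of 6, 2 of 6 and 3 of 6 were higher in the 6 comparisons in the order given above. Lower were 0, 0, 2, 2, 2 and 2. The shares of all genes were 15.6%, 9.87%, 2.2%, 3.58%, 3.19% and 26.3% higher, and 1.29%, 1.35%, 15.9%, 39.8%, 32.9% and 4.53% lower. Some of the ligand counts lie near these shares. Ccl9 was higher from CMP to Ly6C-GMP by 2.13, but by 3.57 within run B and -0.70 within run H. C3 and Ccl9 were among the calls from Ly6C+GMP to proneu, at 1.67 and -1.25, and within run C the differences were 0.82 and -0.17. Ccl9 was also lower from Ly6C+GMP to tpMo, and within run C the difference was 0.17.

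**Figure D5:**
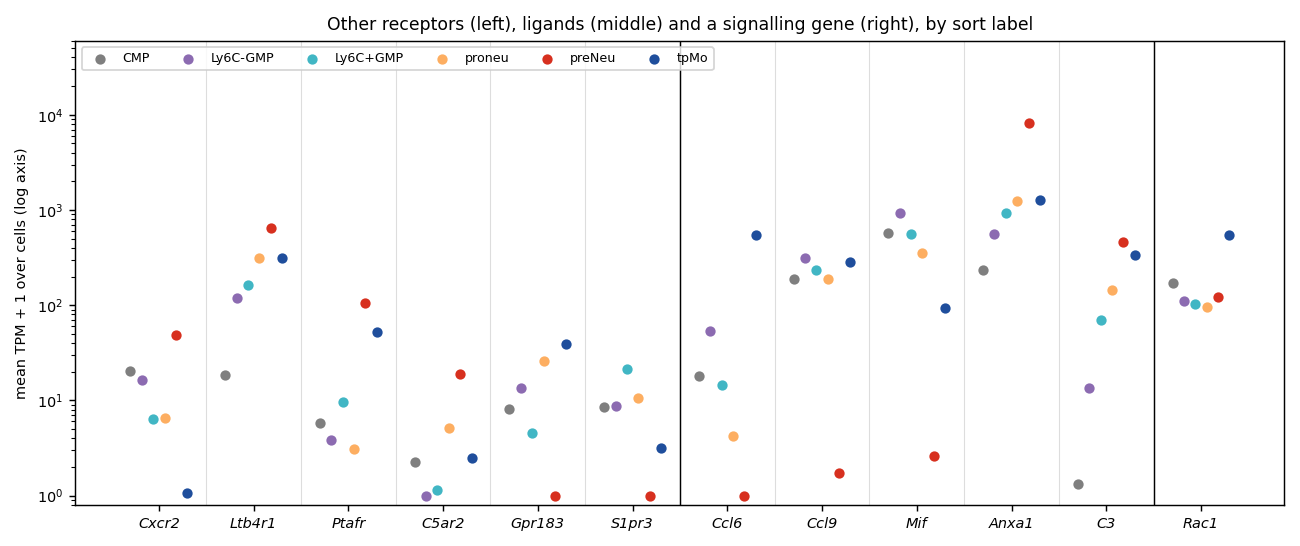
Mean TPM + 1 over cells (log axis) of genes around the 7 receptors, by sort label: other receptors on the left, ligands in the middle and Rac1 on the right. Ccl6 (548 TPM) and Rac1 (544 TPM) are highest in tpMo cells, Anxa1 (8169 TPM) and Ltb4r1 (649.9 TPM) in preNeu cells, and Mif is lowest in preNeu cells (1.58 TPM).

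Of the signalling genes downstream of the receptors, 29 to 31 of 32 passed the filter. From CMP to Ly6C-GMP 6 of 31 were higher and 0 lower, beside 15.6% and 1.29% of all genes. From Ly6C-GMP to Ly6C+GMP it was 7 and 0 of 31, beside 9.87% and 1.35%. From Ly6C+GMP to proneu 1 and 6 of 29 were called, beside 2.2% and 15.9%, and from proneu to preNeu 6 and 6 of 29, beside 3.58% and 39.8%. From Ly6C+GMP to tpMo it was 3 and 6 of 30, beside 3.19% and 32.9%, and from preNeu to tpMo 8 and 7 of 30, beside 26.3% and 4.53%. Several of these counts lie near the share of all genes. Median differences of the list were 0.18, 0.40, -0.26, -0.09, -0.27 and 0.28, beside 0.19, 0.12, -0.23, -0.68, -0.50 and 0.36 for all genes. In preNeu against proneu cells Rgs14, a regulator of G protein signalling (138 against 10.2 TPM, difference 2.89), and Arrb2, the beta-arrestin that takes receptors off the membrane (119 against 17.6 TPM, 2.56), were higher, and Vav1, an exchange factor for Rac, was lower (-3.04). In tpMo against Ly6C+GMP cells Rac1, a GTPase of the moving cell edge, was higher (544 against 102.6 TPM, 3.34), and Elmo1 (-2.60) and Plcb2 (-2.18) were lower. Gng2, a G protein gamma subunit, was listed at 0 in all preNeu cells and averaged 81.6 ± 100.6 TPM in tpMo cells.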

How the data were processed

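Cells were taken from bone marrow by the gates given above, and per the labels' protocols cDNA was made by a modified SMART-seq2 and sequenced as paired-end reads. The authors deposited 1 table of TPM values. The submitters' processing notes list RSEM 1.2.19 and GRCm38; an aligner, annotation or filter is not given in the sources used here. Read depth is unknown, so detected genes (1 TPM or more) stand in for it. Each cell's TPM values share 1 fixed total, so the large granule transcripts of preNeu cells can lower the values of their other genes.

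The 7 receptors and the gene lists were chosen with earlier results of these data known. The effect was the difference of mean log2(TPM + 1), called from 1, which understates the change of low genes. Exact Clopper-Pearson 95% intervals were computed for shares of cells. All cells were used and no doublet caller was run. Named related genes were up to 3 of each list and comparison with the largest difference and a mean of at least 5 TPM in the higher label; S1pr2 and the genes listed as at 0 were named after their values were seen. For each receptor the 5 genes of highest Pearson correlation over cells were named, among genes with a mean of at least 20 TPM and detection in 50% of cells of a label and without predicted genes. Alternatives were pseudocounts of 10 and 0.1 TPM, the ratio of means, scaling by the median ratio of 547 genes, renormalising without mitochondrial and the 20 most abundant genes, other filters and detection limits, single title runs and leaving out the highest cell. Scripts ran in Python 3.11.15 with numpy 2.4.6, pandas 2.3.3 and scipy 1.17.1, and the difference of means was tried on simulated cells. That simulation covered only large changes in genes well expressed in Ly6C+GMP cells. It does not bear on the calls of receptors that are at 0 in most cells.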

Additional observations from a re-analysis of the deposited data

How the results depend on the processing

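Of the alternative counts of receptors past the threshold, 81 stayed within 1.5 times the value given and 15 did not. With the log2 ratio of mean TPM, receptors higher and lower numbered 2 and 1 from CMP to Ly6C-GMP, 0 and 2 from Ly6C-GMP to Ly6C+GMP, and 1 and 2 from Ly6C+GMP to proneu; 2 were lower from proneu to preNeu and 5 higher from Ly6C+GMP to tpMo. With a pseudocount of 10 TPM, 0 were higher from Ly6C-GMP to Ly6C+GMP, 1 from proneu to preNeu, 1 from Ly6C+GMP to tpMo, and 1 higher and 1 lower from preNeu to tpMo. Within title run H, 1 was higher from CMP to Ly6C-GMP, and with the Ly6C+GMP cells of run C, 0 were higher than in Ly6C-GMP. Median-ratio scaling moved the median difference of all genes from -0.68 to -0.53 from proneu to preNeu and from 0.36 to 0.26 from preNeu to tpMo, and neither scaling changed a receptor count. The cause of these shifts was not tested. No receptor difference that was called reversed its sign in the alternatives run. Of the alternative receptor differences, 318 moved by less than 1 SD over cells and 18 by more. The counts of related lists were repeated only under other filters on mean TPM, where the 96 counts stayed within 1.5 times. Without a filter they could not change, because a called gene has a mean of at least 1 TPM in the higher label. Pseudocounts, scalings and title runs were not applied to these counts. No paired analysis was possible because each label is 1 sample and no result comes from a test. Precision is limited by cells per label, of which proneu has the fewest (22), and by detection: a receptor missing in 1 cell was not detected at its depth, which the files do not give.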
